A study of Mus musculus with 14 samples.

Results

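A group of 9 interferon-stimulated genes was followed through an irradiation experiment in mice with and without Atm, a kinase that signals broken DNA. The genes are Ifit1, Ifit2, Ifit3, Isg15, Irf7, Irf1, Usp18, Gbp2 and Ifi35, and every probe set annotated to one of these symbols was taken. That gave 10 probe sets of 9 genes, out of 12488 probe sets on the array, with Irf7 read by 2 probe sets and each other gene by 1. The symbols were named in advance, together with the remark that their direction was opposite in the 2 genotypes at 120 min, and that remark came from these same arrays.

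RNA labelled as murine lymph node was hybridised to 14 one-colour Affymetrix arrays. Animals were Atm+/+ (WT) or Atm-/- (KO), and each genotype had 3 untreated arrays (A, B and C), 2 arrays (A and B) from 30 min and 2 arrays (A and B) from 120 min after ionizing radiation. The dose, strain, sex and age of the mice, the disrupted part of Atm, and whether the replicates are separate animals are not stated in the labels. The p-values therefore reflect array-to-array spread alone, which may be technical. Values are the deposited intensities, which are linear and had been scaled to the same trimmed mean on every array, and changes are differences of log2(intensity + 32) ± standard error.

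Of 9 measured salivary gland markers, 8 were in the brightest 1% of probe sets on all 14 arrays. The median salivary gland marker ranged from 5683.2 to 9849.2 per array. Per array, the median B cell marker (14 measured) ranged from 72.6 to 173.7 and the median T cell marker (14 measured) from 46.3 to 85.65. Over all probe sets the array medians were 61 to 80.4. Lymphoid markers were thus far dimmer than salivary gland markers, and the median T cell marker lay near the array median. The 1 probe set of Atm lay between 5.5 and 55.9 in WT and between 7.5 and 44 in KO. Where it lies relative to the disrupted part is not known, so it checks nothing about the genotype. Median correlation with the other arrays was lowest for KO 30 min A (0.910), WT untreated A (0.928) and KO 120 min A (0.936). The members were also tested without these arrays.

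Interferons are secreted proteins that warn cells of infection. Type I interferons bind the receptor Ifnar1/Ifnar2, whose kinases Jak1 and Tyk2 pass the signal on to the interferon-stimulated response element of target promoters. Interferon-gamma has its own receptor and acts on gamma-activated sites. Ifit1, Ifit2 and Ifit3 encode antiviral proteins with tetratricopeptide repeats, and Isg15 encodes a ubiquitin-like modifier that Usp18 removes again. Usp18 also blocks signalling at the type I receptor. Irf7 and Irf1 are transcription factors, and Irf1 is a known target of NF-kB as well as of interferon-gamma. Gbp2 encodes a guanylate-binding GTPase and Ifi35 an interferon-induced leucine zipper protein.

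RefSeq promoter windows of the assembly GRCm38.p6 were held for 8 of the 9 genes, the exception being Usp18. The 250 bases before each start were searched on both strands for the core of the interferon-stimulated response element, written as GAAA followed after 2 bases of any kind by a second GAAA. It was found in Ifit1, Ifit3, Isg15 and Gbp2, and in 2.98% of all 32851 windows of that length. It was not found in Irf1, Ifit2, Irf7 or Ifi35. The stretches are shown with capitals that mark the matches, which overlap in Isg15. They are given 5′ to 3′ on the gene's own strand, at chr19:34640763-34640835 (plus) for Ifit1, chr19:34583351-34583438 (plus) for Ifit3, chr4:156200853-156200918 (minus) for Isg15 and chr3:142620582-142620635 (plus) for Gbp2.
Ifit1: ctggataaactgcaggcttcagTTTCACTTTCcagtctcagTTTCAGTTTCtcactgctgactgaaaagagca
Ifit3: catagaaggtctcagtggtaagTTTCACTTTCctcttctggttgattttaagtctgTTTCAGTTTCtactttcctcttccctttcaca
Isg15: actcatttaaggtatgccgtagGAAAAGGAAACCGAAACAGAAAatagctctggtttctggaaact
Gbp2: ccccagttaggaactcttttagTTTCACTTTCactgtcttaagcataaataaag

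Irf1 held no such core in its windows and instead held a gamma-activated site, written as TTC and GAA with 3 bases of any kind between them, and a match to the NF-kB consensus. Either motif was also found in Ifit2, where the 2 matches overlap each other. The gamma-activated site occurred in 7.02% and the NF-kB consensus in 7.25% of all windows. The first stretch of Irf1 shows the gamma-activated site at chr11:53769902-53769954 and the second the NF-kB match, which begins 13 bases before the start, at chr11:53769979-53770013, both on the plus strand.
Irf1, gamma-activated site: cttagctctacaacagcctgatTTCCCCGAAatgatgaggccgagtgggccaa
Irf1, NF-kB consensus: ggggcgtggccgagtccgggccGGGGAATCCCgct
None of the 3 motifs was found in the windows of Irf7 and Ifi35. A match describes the letters of the window and does not show that a factor was bound.

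Irf1 was the member that rose. Untreated WT arrays had intensities of 241.2, 201.0 and 175.2, those from 30 min had 329.3 and 305.0, and those from 120 min had 594.5 and 609.8. All 4 irradiated WT arrays lay above all 3 untreated ones, and both arrays at 120 min lay above both at 30 min. At 120 min the group mean was 602 ± 10.8 (SD, n = 2), against 206 ± 33.3 (SD, n = 3) without treatment. At 30 min the change was 0.56 ± 0.19 (limma, adjusted p = 0.848). At 120 min it was 1.40 ± 0.19, a 2.63-fold rise (limma, adjusted p = 0.00487). It was the only one of the 9 tested member probe sets to pass in WT at 120 min, where 0.515% of the 8938 tested probe sets passed. Fits without WT 120 min A (adjusted p = 0.0525), without WT 120 min B (0.110) and of only the 2 groups compared (0.053) ended the call, with changes of 1.33 to 1.45.

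Untreated KO arrays had Irf1 intensities of 186.6, 224.4 and 257.4, followed by 155.0 and 210.3 (30 min) and 297.9 and 273.2 (120 min). At 30 min the groups overlapped, and at 120 min both arrays lay above the untreated ones but below every irradiated WT array. The changes were -0.27 ± 0.19 at 30 min and 0.34 ± 0.19 at 120 min (limma, adjusted p = 0.713 and 0.762). The difference of response, KO change minus WT change, was -0.83 ± 0.27 at 30 min (adjusted p = 0.804) and -1.06 ± 0.27 at 120 min (adjusted p = 0.338). At 120 min its 95% interval, not adjusted for multiple testing, ran from -1.66 to -0.46. Neither difference passed over all probe sets, so these arrays did not establish that Irf1 responded less in KO than in WT. Averaged over the 3 conditions Irf1 was at -0.53 ± 0.12 in KO against WT (adjusted p = 0.159), and it passed in 1 alternative fit, without KO 30 min B (adjusted p = 0.0445).

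**Figure D1:**
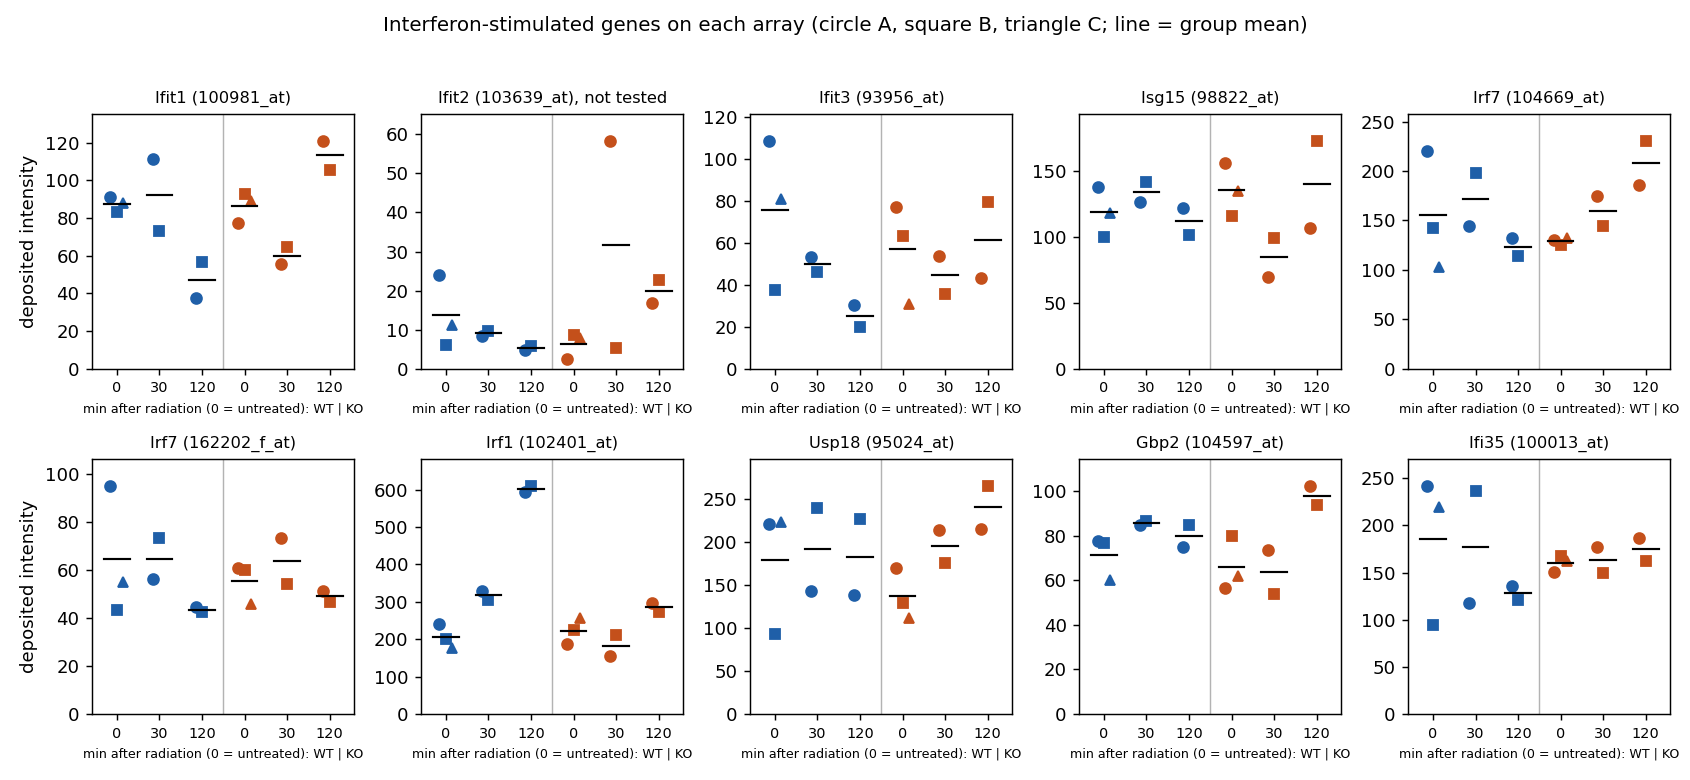
Deposited intensity (linear axis from 0, its own scale in each panel) of the 10 probe sets against time after radiation, with WT in blue and KO in orange. Each point is 1 array and each line a group mean; Irf1 reached 594.5 and 609.8 in WT at 120 min against 297.9 and 273.2 in KO, and Ifit1 was lowest in WT at 120 min and highest on average in KO at 120 min.

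Ifit1, whose product recognises viral RNA caps, had opposite signs in the 2 genotypes at 120 min, with no overlap in either. In WT it read 91.0, 83.5 and 88.2 before radiation, 111.6 and 73.3 after 30 min and 37.6 and 56.6 after 120 min. The KO arrays read 77.3, 92.6 and 89.0 before radiation, 55.6 and 64.5 after 30 min and 121.0 and 105.8 after 120 min. The arrays at 120 min thus lay below all untreated arrays in WT and above all of them in KO, while at 30 min the KO arrays lay below. The change at 120 min was -0.53 ± 0.18 in WT (limma, adjusted p = 0.409) and 0.32 ± 0.18 in KO (adjusted p = 0.762). The difference between them was 0.85 ± 0.25 (limma, adjusted p = 0.439). Its 95% interval, not adjusted for multiple testing, was 0.30 to 1.40, and its unadjusted p in the limma fit was 0.00555. The remark that came with the genes concerned this same direction on these same arrays, so neither value is an independent test of it. Ifit1 alone among the 9 tested probe sets was separated downward in WT and upward in KO, a pattern shown by 1.59% of all tested probe sets.

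Ifit3 and Ifit2 lie beside Ifit1 in 1 gene cluster on chromosome 19 that also holds the copies Ifit3b, Ifit1bl1 and Ifit1bl2, and whether the probe sets tell these copies apart was not checked. Ifit3 read 108.8, 37.8 and 80.9 on the untreated WT arrays, 53.6 and 46.4 after 30 min and 30.4 and 19.8 after 120 min. The arrays at 120 min were the lowest of WT in deposited intensity, although after quantile normalization they overlapped the untreated ones. The KO arrays read 77.4, 63.5 and 30.9 before radiation, 54.0 and 35.9 after 30 min and 43.2 and 79.5 after 120 min, with overlap throughout. The change at 120 min was -0.80 ± 0.31 in WT (adjusted p = 0.495) and 0.09 ± 0.31 in KO (adjusted p = 0.975), and the difference 0.88 ± 0.44 (adjusted p = 0.741). Without KO untreated C or KO 120 min B the KO value was below 0 (-0.13 and -0.21). Ifit2 was too dim to be tested: it exceeded the 40th percentile of its array on 1 array only, KO 30 min A, where it read 58.3, and lay between 2.5 and 24.0 on the other 13.

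Irf7, the factor that amplifies type I interferon production, was read differently by its 2 probe sets. The first, with the plain suffix _at, read 220.0, 142.6 and 102.8 on the untreated WT arrays, 144.7 and 198.3 after 30 min and 132.4 and 113.7 after 120 min. The KO arrays read 129.8, 125.4 and 132.8 before radiation, 174.7 and 144.7 after 30 min and 185.4 and 230.5 after 120 min, so that all 4 irradiated KO arrays lay above the untreated ones. The changes at 120 min were -0.21 ± 0.23 in WT (adjusted p = 0.870) and 0.57 ± 0.23 in KO (adjusted p = 0.662), and their difference was 0.78 ± 0.33 (adjusted p = 0.667). Without WT untreated A the WT value was above 0, at 0.029. The second, whose suffix _f_at marks probes shared within a sequence family, lay between 42.5 and 94.9 and gave -0.25 ± 0.21 in WT and -0.10 ± 0.21 in KO (adjusted p = 0.809 and 0.953), with overlap in KO at both times.

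Usp18 and Ifi35 were each much lower on WT untreated B than on the other untreated WT arrays. Usp18 read 221.9, 93.5 and 223.9 before radiation, 143.3 and 240.2 after 30 min and 138.6 and 227.6 after 120 min in WT. In KO it read 170.6, 129.8 and 111.5, then 214.9 and 176.1, then 215.7 and 265.6, with no overlap between untreated and irradiated arrays. Its change at 120 min was 0.70 ± 0.32 in KO (adjusted p = 0.690) and 0.10 ± 0.32 in WT (adjusted p = 0.963), and the WT value was below 0 without WT untreated B (-0.25) or WT 120 min B (-0.18). Ifi35 had the same low array, with 241.8, 94.7 and 219.2 on the untreated WT arrays, followed by 118.1 and 236.5 at 30 min and 135.9 and 121.1 at 120 min. In KO all 7 Ifi35 values lay between 149.6 and 186.7. Its changes at 120 min were -0.33 ± 0.31 in WT and 0.11 ± 0.31 in KO (adjusted p = 0.838 and 0.968). The difference of response at 120 min was 0.60 ± 0.45 for Usp18 and 0.43 ± 0.44 for Ifi35 (adjusted p = 0.881 and 0.919).

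Gbp2 read 77.7, 76.6 and 60.4 on the untreated WT arrays, 85.0 and 86.8 at 30 min and 75.2 and 84.9 at 120 min. In KO it read 56.6, 79.9 and 62.2, then 73.6 and 53.8, and then 102.4 and 93.8, the highest Gbp2 values of any array. The change at 120 min was 0.43 ± 0.15 in KO (limma, adjusted p = 0.629) and 0.17 ± 0.15 in WT (adjusted p = 0.823), so its direction did not differ between the genotypes. Isg15 read 138.1, 100.1 and 118.3 before radiation in WT, 126.6 and 141.8 after 30 min and 121.9 and 101.5 after 120 min. In KO it read 155.9, 115.5 and 134.4, then 69.4 and 99.4, and then 107.0 and 172.7. Both KO arrays at 30 min lay below the untreated ones, with a change of -0.57 ± 0.23 (adjusted p = 0.558), whereas at 120 min the changes were -0.03 ± 0.23 in WT and 0.04 ± 0.23 in KO (adjusted p = 0.982 and 0.989). In both genotypes the sign of Isg15 at 120 min turned when single arrays were left out, and in WT it also turned under median centring.

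**Figure D2:**
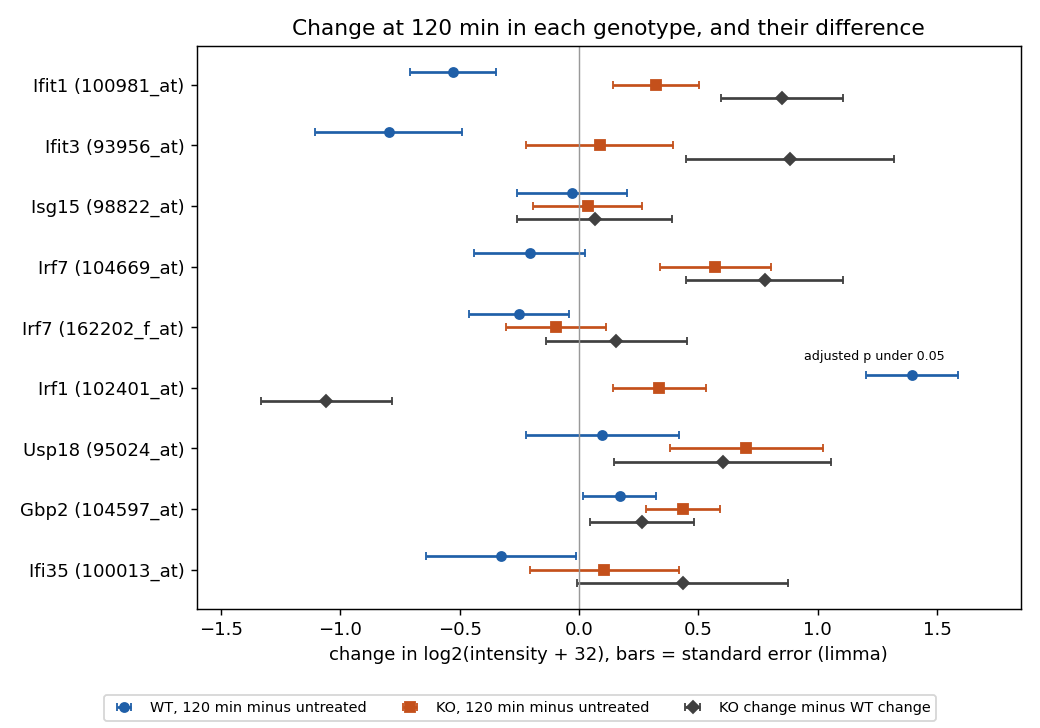
Change at 120 min against untreated in log2(intensity + 32) for the 9 tested probe sets, in WT (blue circles) and KO (orange squares), and the KO change minus the WT change (grey diamonds). Bars are standard errors from the limma fit; only the WT rise of Irf1 passed (1.40 ± 0.19), and the difference lay above 0 for 8 probe sets and below 0 for Irf1.

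The counts that follow are of the 9 tested probe sets, which stand for 8 genes since Irf7 has 2 and Ifit2 was not tested. The genes came with a remark on their direction at 120 min that was drawn from these same arrays. Counts at 120 min, and the intervals and unadjusted p-values of the difference at 120 min, therefore describe the members. They do not independently test that direction, also where a share of all probe sets stands beside them. At 120 min, 5 of 9 were lower than untreated in WT and higher in KO by their means, namely Ifit1, Ifit3, Isg15, Irf7 (_at) and Ifi35, a sign pattern shown by 23.4% of all tested probe sets. Of these, Ifit1 and Ifi35 kept it in all 25 alternative fits, which reuse the same arrays. Ifi35 nevertheless overlapped with untreated arrays in both genotypes, and its KO change fell as low as 0.028 with single arrays left out. Irf1, Usp18 and Gbp2 were higher in both genotypes and the second Irf7 probe set lower in both. No member passed for the difference of response at 120 min by limma, where 0.134% of all tested probe sets passed. At an unadjusted p under 0.05 there were 3 (Irf1, Ifit1 and Irf7 _at), against 6.99% of all. The difference was above 0 for 8 of 9 member probe sets (median 0.43), against 49.3% of all probe sets (median -0.01). Opposite signs were thus not shared by all members, and no member passed the test of the difference.

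In KO at 120 min, 8 of 9 member probe sets had a change above 0 (median 0.32), against 49.6% of all tested probe sets (median below 0.01 in size). Both arrays at 120 min lay above all untreated ones for Ifit1, Irf7 (_at), Irf1, Usp18 and Gbp2, 5 of 9, against 13.2% of all probe sets. None passed by limma, as for every probe set in that comparison (0%), and 3 had an unadjusted p under 0.05 (Gbp2, Irf7 _at and Usp18), against 7.22%. In WT at 120 min the median was -0.21, 3 member probe sets did not overlap in deposited intensity (Ifit1 and Ifit3 lower, Irf1 higher), against 27.3% in either direction, and the same 3 had an unadjusted p under 0.05, against 8.66%.

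At 30 min no member passed in either genotype. In WT 0.101% of all tested probe sets passed; among the members only Irf1 had an unadjusted p under 0.05 (5.02% of all), and Irf1 and Gbp2 lay above the untreated arrays without overlap (9.06% of all). In KO no probe set passed (0%); Isg15 alone among the members had an unadjusted p under 0.05 (8.38% of all), and 4 member probe sets did not overlap, against 22.6% of all. Of these 4, Ifit1 and Isg15 were lower and Irf7 (_at) and Usp18 higher, so the members had no common direction. For the difference of response at 30 min, 0 member probe sets passed, against 0.0783% of all, and 2 (Irf1 and Isg15) had an unadjusted p under 0.05, against 5.59%. The difference of Isg15 was -0.73 ± 0.32 (adjusted p = 0.868).

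Before radiation no difference between the genotypes passed in these genes. None of the 9 probe sets passed by limma between untreated KO and WT arrays, nor did any other (0%), and none had an unadjusted p under 0.05, against 5.48% of all. The changes ran from -0.27 (Ifit3) to 0.15 (Isg15). Averaged over the 3 conditions none passed, against 0.168% of all, and Irf1 alone had an unadjusted p under 0.05, against 6.44%.

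The rest of the interferon pathway was read through lists chosen from general knowledge, with 1 probe set per gene. Earlier results of these data were known when the lists were chosen, so their counts are descriptions. No gene of the 5 lists passed at 120 min in WT, in KO or for the difference between them by limma. At an unadjusted p under 0.05 for the difference there were 5 of 25 other antiviral genes, 3 of 10 genes of class I antigen processing, 1 of 9 interferons and receptors, 0 of 13 signalling genes and 0 of 11 genes induced by interferon-gamma, against 6.99% of all probe sets. Of 25 tested other antiviral genes, 17 were below untreated in WT at 120 min (median -0.21), against 4522 of all 8938 tested probe sets, and 17 were above it in KO (median 0.08), against 4431 of all. The median difference was 0.27. Trim30a, a member of the tripartite motif family, was at 0.93 ± 0.30 for the difference (adjusted p = 0.486), the antiviral GTPase Mx1 at 0.81 ± 0.35 and the antiviral enzyme viperin, Rsad2, at 1.10 ± 0.42 (adjusted p = 0.668 and 0.620). Plscr1, a phospholipid scramblase, went the other way at -1.20 ± 0.41 (adjusted p = 0.530), reading 190.2 and 217.7 in WT at 120 min against 97.2, 77.7 and 85.4 without treatment.

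Of 11 tested GTPases and other genes induced by interferon-gamma, 9 had a difference above 0 (median 0.35), against 49.3% of all probe sets. The 4 of largest size were Iigp1 at 0.57 ± 0.44, Gbp2b at 0.54 ± 0.42, the class II transactivator Ciita at 0.40 ± 0.34 and the tryptophanyl-tRNA synthetase Wars at 0.39 ± 0.35 (adjusted p from 0.885 to 0.901). In class I antigen processing (10 tested, 6 above 0 and 4 below, median 0.16), the immunoproteasome subunit Psmb9 had a difference of 1.15 ± 0.23 (limma, adjusted p = 0.110). Its p for the difference was the lowest of the 5 pathway lists. It read 245.7, 226.4 and 234.2 before radiation and 148.7 and 118.9 at 120 min in WT, and 206.2, 235.2 and 185.7 without treatment and 310.3 and 290.2 at 120 min in KO. Like Ifit1, Psmb9 was thus separated downward in WT and upward in KO. The peptide transporter Tap1 was at 0.81 ± 0.33, and the immunoproteasome subunits Psmb8 at 0.66 ± 0.28 and Psmb10 at 0.29 ± 0.34 (adjusted p = 0.654, 0.668 and 0.934).

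Among interferons and receptors (9 tested, median -0.14), Ifngr2, a chain of the interferon-gamma receptor, was at -1.12 ± 0.45 (adjusted p = 0.651), Ifnab at 0.75 ± 0.39, Ifna7 at -0.70 ± 0.40 and the type I receptor chain Ifnar2 at -0.47 ± 0.28 (adjusted p = 0.765, 0.787 and 0.804). The interferon-alpha genes are near copies of each other, and the probe sets of Ifnab and Ifna7 carry the family suffix. Of 13 tested signalling genes, 9 had a difference above 0 and 4 below it (median 0.18, lowest -0.57), against 49.3% of all probe sets above 0. The 4 of largest size were the phosphatase Ptpn6 at 0.68 ± 0.38, the factor Irf8 at 0.64 ± 0.33, the inhibitor Socs1 at 0.62 ± 0.46 and the kinase Jak2 at 0.59 ± 0.31 (adjusted p = 0.785, 0.749, 0.881 and 0.767).

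**Figure D3:**
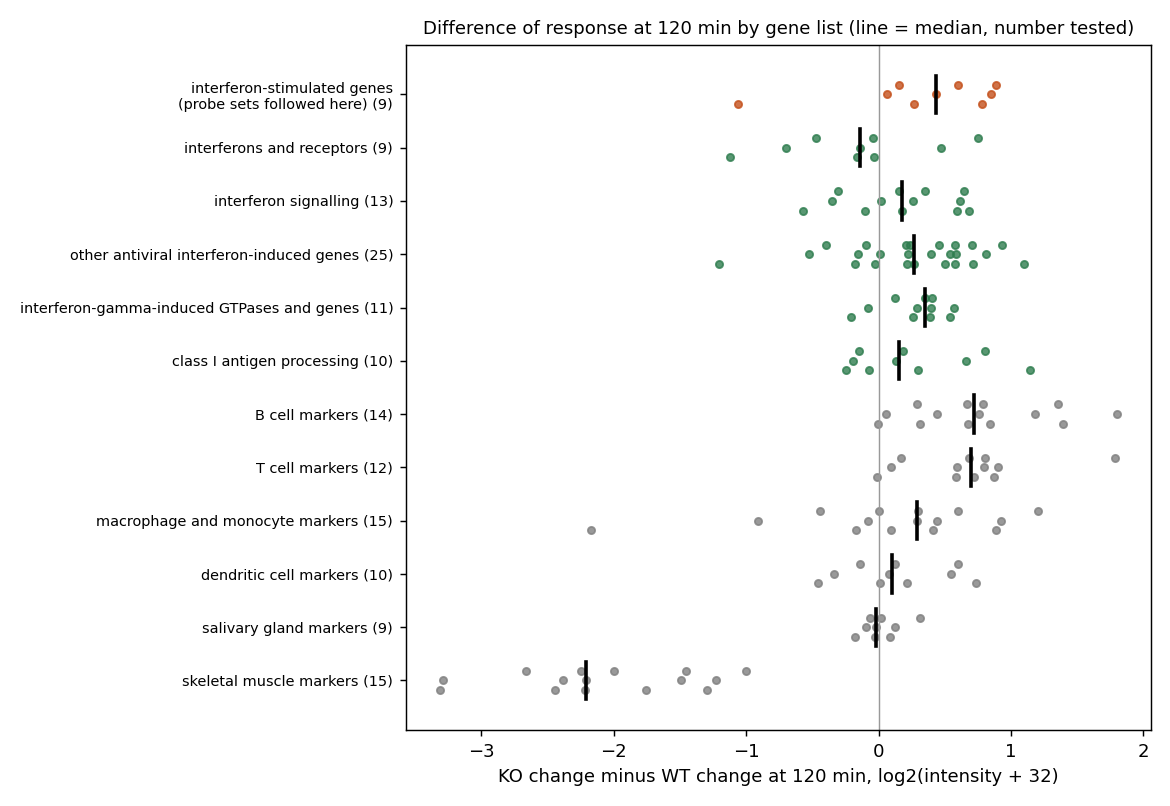
KO change minus WT change at 120 min in log2(intensity + 32) for every tested gene of each list (points), with the median as a black line and the number tested in brackets. The median was 0.43 for the interferon-stimulated genes (orange), between -0.14 and 0.35 for the pathway lists (green), 0.72 for B cell, 0.70 for T cell and -2.21 for skeletal muscle markers (grey).

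Markers of cell types were read along the same contrast, and the size and direction of the difference varied by list. The summed intensity of 14 B cell markers was 2572 to 3326 on untreated WT arrays and 1727 to 1747 at 120 min, against 2164 to 2884 and 2762 to 3510 in KO. That of 14 T cell markers was 1136 to 1232 and 698 to 729 in WT, against 783 to 911 and 964 to 1024 in KO. None of these markers was at 0 on any array, and 2 of 14 tested B cell markers (Cd22 and H2-Ob) fell in WT at 120 min, where 4 of all 8938 tested probe sets fell. The difference of response was above 0 for 13 of 14 tested B cell markers (median 0.72) and 11 of 12 T cell markers (median 0.70), and below 0 for all 15 skeletal muscle markers (median -2.21). Muscle sums ran from 1719 to 3724 on untreated WT arrays and from 4519 to 4533 in WT at 120 min. In KO they were uneven before radiation, at 11344 (A), 4248 (B) and 13318 (C), and 1355 to 4204 at 120 min. All 15 muscle markers were above untreated in WT at 120 min (median 0.68) and below it in KO (median -1.53). All 15 were also higher in untreated KO than in untreated WT arrays (median 1.51). None of these muscle values passed by limma, and 14 of the 15 had an unadjusted p under 0.05 between the untreated groups, 1 in WT and 13 in KO at 120 min. Of 15 tested macrophage and monocyte markers, Cd14, a co-receptor for bacterial lipopolysaccharide, rose in WT at 120 min (2.10 ± 0.24, limma, adjusted p = 0.000869) and was at -0.08 ± 0.24 in KO. Its difference of response, -2.18 ± 0.33 (adjusted p = 0.0265), passed and was opposite in sign to the median of its list, 0.29. The medians were 0.10 for 10 dendritic cell markers and -0.02 for 9 salivary gland markers. For Gapdh, the 3′ to 5′ signal ratio, which reflects RNA integrity, at 120 min was 0.891 and 0.723 in WT and 0.857 and 0.777 in KO, and it ran from 0.867 to 1.01 over the 6 untreated arrays. Their part in the values of the interferon-stimulated genes was not tested, and in bulk RNA fewer cells of a type and less RNA per cell cannot be told apart.

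**Figure D4:**
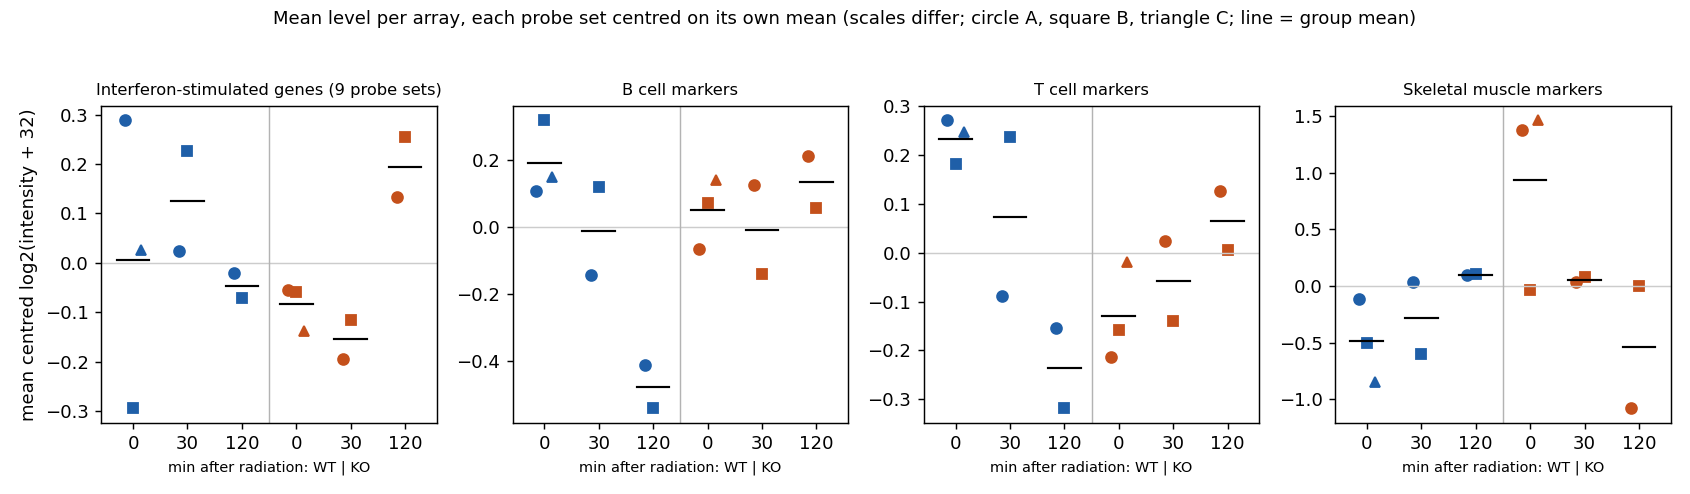
Mean of log2(intensity + 32) per array, each probe set centred on its own mean, for the 9 tested interferon-stimulated probe sets and for B cell, T cell and skeletal muscle markers (WT blue, KO orange, 1 point per array, line at the group mean, axes of different scale). The interferon-stimulated mean spanned -0.29 to 0.29 among untreated WT arrays alone, and B cell markers were lowest on both WT arrays at 120 min (-0.41 and -0.54).

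The members differed in how closely they followed their common mean. The correlation of each tested probe set with the mean of all 9 over the 14 arrays, to which it contributes, ran from 0.22 for Irf1 and 0.44 for Ifit1 to 0.68 for Ifi35 and 0.69 for Usp18. The 8 other genes most like that mean were Dvl3 (r = 0.87), Pfdn2 (0.85), Bcl7c (0.83), Pfkp (0.81), AA545190 (0.79), Ctsh (0.79), Dkk3 (0.79) and Sdc1 (0.76). These correlations describe the same 14 arrays, which share their normalization and tissue makeup, and none of the 8 genes stands in the interferon lists used here. The profile rested in part on untreated WT arrays, where it was 0.29 on A and -0.29 on B.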

How the data were processed

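The authors deposited linear intensity values, 1 for each probe set on each array (0 to 15198.3), made with software that the labels do not name. After trimming 2% at either end, each array had a mean of 150.1. Groups came from the sample titles. Control probe sets (66) were left out, log2(intensity + 32) was quantile normalized, and a probe set was tested when above its array's 40th percentile on at least 2 arrays, which left 8938. Precision is limited by how many arrays there are: a response had a median standard error of 0.232, and a difference of response 0.328.

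In limma 3.58.1 (R 4.3.3), 8 comparisons were taken from 1 model with a mean for each of the 6 groups, all 14 arrays included. P-values were adjusted by Benjamini-Hochberg over the tested probe sets and called under 0.05. The fitting code was tested on simulated data. Overlap of groups was read from deposited intensities.

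Symbols came from the platform annotation, checked by Entrez ID for 10839 of 10855 probe sets with 1 gene, of which 0 changed. Another 396 had several genes and 1237 none, and these were not named. Members and lists were chosen with earlier results of these data known. Named were all members, from each pathway list the 4 largest differences of response at 120 min and any called gene, and the 8 genes most like the members' mean. The NF-kB consensus was searched as a 10-base pattern with ambiguous positions. Alternatives covered offset, floor, normalization, filter, samples in the fit, robust variance, the replicate letter as a block, the 3 arrays of lowest correlation and each array left out.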

Additional observations from a re-analysis of the deposited data

Results flagged for a closer look

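Ifit1 was singled out because both WT arrays at 120 min lay below all untreated WT arrays while both KO arrays at 120 min lay above all untreated KO arrays. Its reading on WT 120 min A was below the 40th percentile of that array. The KO change minus the WT change was 0.85 ± 0.25, and this difference did not pass over all probe sets (limma, adjusted p = 0.439). Leaving out each of the 14 arrays in turn gave differences between 0.75 and 0.94, and adjusted p between 0.288 and 0.910. Groups of 2 or 3 arrays were too small for a search for single outlying arrays.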

How the results depend on the processing

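Of 1370 values recomputed for 55 single results in 25 alternative fits, 1348 kept their direction and their side of the threshold, and 48 results never changed sign. Among these results only the rise of Irf1 in WT at 120 min was called in the main fit. The rest were uncalled there, most far from the threshold, so that keeping their side says little about how stable they are. The count of member probe sets passing in WT at 120 min, 1 (Irf1), was 0 in a fit of only the groups compared and ranged from 0 to 1 when single arrays were left out. For KO against WT averaged over conditions the count was 0 and ranged from 0 to 1 in the same way. The cause was not tested. With the replicate block, the letter as a fixed term, 1 member probe set passed in WT at 120 min and the count over all probe sets went from 46 to 25. That count was 21 in the fit of only the groups compared and 13 to 44 with single arrays left out. The letters did not pair the arrays: same-letter deviations correlated between -0.12 and 0.084, and 0 of 3 untreated arrays of either genotype correlated best with its own letter. All sign changes were of uncalled values. Isg15 in WT at 120 min became 0.0064 with median centring and 0.056 without the 3 arrays of lowest correlation, which also moved Irf7 (_at) in WT to 0.030 and the difference of Irf7 (_f_at) to -0.080. With single arrays left out at 120 min, Isg15 ranged from -0.16 to 0.10 in WT, from -0.25 to 0.32 in KO and from -0.22 to 0.35 for the difference. In the same fits Irf7 (_at) ranged from -0.40 to 0.029 in WT, the difference of Irf7 (_f_at) from -0.045 to 0.33, Usp18 in WT from -0.25 to 0.38 and Ifit3 in KO from -0.21 to 0.38. Changes of dim probe sets such as Ifit3, Ifit2, Rsad2 and Trim30a are limited by signal near background, as is the Ifit1 reading on WT 120 min A.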
